A study of Mus musculus with 92 samples.

Results

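Granule genes of the later stages of neutrophil maturation were followed in 92 single bone marrow cells. The 9 genes were Lcn2, Chil3, Fcnb, Camp, Ngp, Cd177, Mmp8, Ltf and Mmp9, taken by name from the 23956 genes of the table as known genes of the specific and gelatinase granules. Every cell came from a C57BL/6 mouse homozygous for Gfi1-R412X (Gfi1-R412X/R412X), an allele that ends the GFI1 protein early. GFI1 is a DNA-binding repressor with zinc fingers, and granulocytes need it to mature. Hindlimb marrow was first passed over CD117 beads, which retain cells bearing the KIT receptor, and then sorted and captured on a Fluidigm C1 chip. The sort gates are named GMP (usually read as granulocyte-monocyte progenitor), with 45 cells, and CD11b+ GMP-P, with 47 cells. There were 0 wild type cells, so what the allele does to these genes was not analysed here. The labels give neither age nor animals. In the cell names 1 date-like prefix goes with GMP and another with CD11b+ GMP-P, and its meaning is not stated. Gate, prefix, animal and capture run therefore cannot be told apart, and each gate was treated as 1 library. Cells are not replicates, no test between gates or states was made, and every difference describes the cells of these gates.

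Neutrophils build their granules in waves. Primary granules, filled with myeloperoxidase (Mpo) and serine proteases such as elastase (Elane), form first. Specific granules, with lactoferrin and cathelicidin, follow at the myelocyte stage, and gelatinase granules come last, before segmentation of the nucleus. A granule protein is sorted largely by when its gene is transcribed, and C/EBPε, the product of Cebpe, is required for the specific granule genes.

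The authors gave each cell 1 of 9 state names. CD11b+ GMP-P held 4 Gran-1, 20 Gran-2, 3 Myelo-1, 15 Myelo-2 and 3 Myelo-4 cells, 45 in all, plus 1 Mono and 1 Multi-Lin cell. GMP held 24 Mono, 3 cMoP, 5 MP, 5 Multi-Lin, 6 Gran-1 and 2 Gran-2 cells. The sources used here do not say how the names were assigned or whether these 9 genes took part; differences between states are therefore a description, and the order of states is that of their names, not of measured time. Values are TPM, the share of a gene among all transcripts on a scale of 1000000, which are scaled by transcript length, so levels of different genes may be compared. TPM keeps no read depth; the median number of genes above 0 in a cell was 4143 in CD11b+ GMP-P against 5611 in GMP, and within the former gate it went from 5263.5 in Gran-1 to 4595 in Gran-2, 4428 in Myelo-1, 2936 in Myelo-2 and 2192 in Myelo-4. Itgam, which encodes CD11b, had a median of 39.7 TPM in CD11b+ GMP-P and 0 TPM in GMP, and in Gran-2 its median was 3.18 TPM. The level of Gfi1 (medians of 18.4 TPM in GMP and 67.96 TPM in CD11b+ GMP-P) does not show the allele.

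Of the 9 genes, 8 had a promoter entry in RefSeq (build GRCm38.p6): 250 bases before the annotated start and 50 after it. Camp, Ngp, Ltf and Mmp8 lie on chromosome 9, Fcnb and Lcn2 on chromosome 2, Chil3 on chromosome 3 and Cd177 on chromosome 7. The C/EBP letters TTGCNNAA, searched on both strands, occurred in 5 of the 8 promoters (Fcnb, Lcn2, Ngp, Mmp8 and Ltf), against 10.8% of 32851 promoters of the same length. The stretches that follow hold the matches lying at least 60 bases before the start, in capitals, with up to 30 bases on each side; they are shown because C/EBPε is the factor best known for these genes, and each is written 5′ to 3′ on the strand of its gene. In Fcnb and Ltf the match is on the opposite strand, so the capitals are the reverse complement. The stretch of Fcnb is chr2:28084964-28085128 (minus strand, 2 matches), that of Lcn2 chr2:32387918-32387985 (minus strand), that of Ngp chr9:110419640-110419707 (plus strand) and that of Ltf chr9:111019187-111019254 (plus strand).
Fcnb: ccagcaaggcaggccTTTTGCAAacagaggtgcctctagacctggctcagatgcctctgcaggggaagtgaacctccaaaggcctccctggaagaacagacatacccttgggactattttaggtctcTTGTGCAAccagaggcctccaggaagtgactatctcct
Lcn2: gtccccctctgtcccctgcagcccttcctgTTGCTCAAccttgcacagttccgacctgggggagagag
Ngp: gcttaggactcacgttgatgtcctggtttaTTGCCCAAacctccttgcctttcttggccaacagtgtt
Ltf: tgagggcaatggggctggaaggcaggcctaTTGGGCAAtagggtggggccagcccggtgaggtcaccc
The Ngp and Mmp8 promoters also matched within 20 bases of the start, at 11 and 19 bases before it. A match in letters is a description, and binding was not measured. For the other motifs, likewise on both strands, the GFI1 core AATCAC occurred in the Mmp8 and Ltf promoters (10.4% of all promoters), the PU.1 core GAGGAA in those of Lcn2, Cd177, Mmp8 and Ltf (28.3% of all) and the RUNX letters TGTGGT in that of Ltf (16.8% of all). None of these letters was found in the windows of Camp and Chil3.

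The granule genes appeared in an order along the named states of CD11b+ GMP-P: Lcn2, Chil3 and Fcnb were already high in Gran-1, Camp and Ngp joined in Gran-2, Cd177 in Myelo-1, Mmp8 and Ltf in Myelo-2, and Mmp9 in Myelo-4. A gene was called on in a state when at least 50% of its cells held it above 100 TPM, a threshold well above the few TPM that may be carried-over reads. By that rule 3 of the 9 genes were on in Gran-1, 5 in Gran-2, 6 in Myelo-1, 8 in Myelo-2 and 8 in Myelo-4. The share of all genes in the table on by the same rule was 6.34%, 3.61%, 3.68%, 1.42% and 1.38% in these states, and among genes found in 25% or more of the state's cells it was 18%, 12.2%, 12.4%, 7.79% and 7.89%. The granule genes on went from 3 to 8 of 9 between the first and the last state, where the share of all genes on went from 6.34% to 1.38%. Fcnb was the one gene of the 9 that was on early and not on in Myelo-4.

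**Figure D1:**
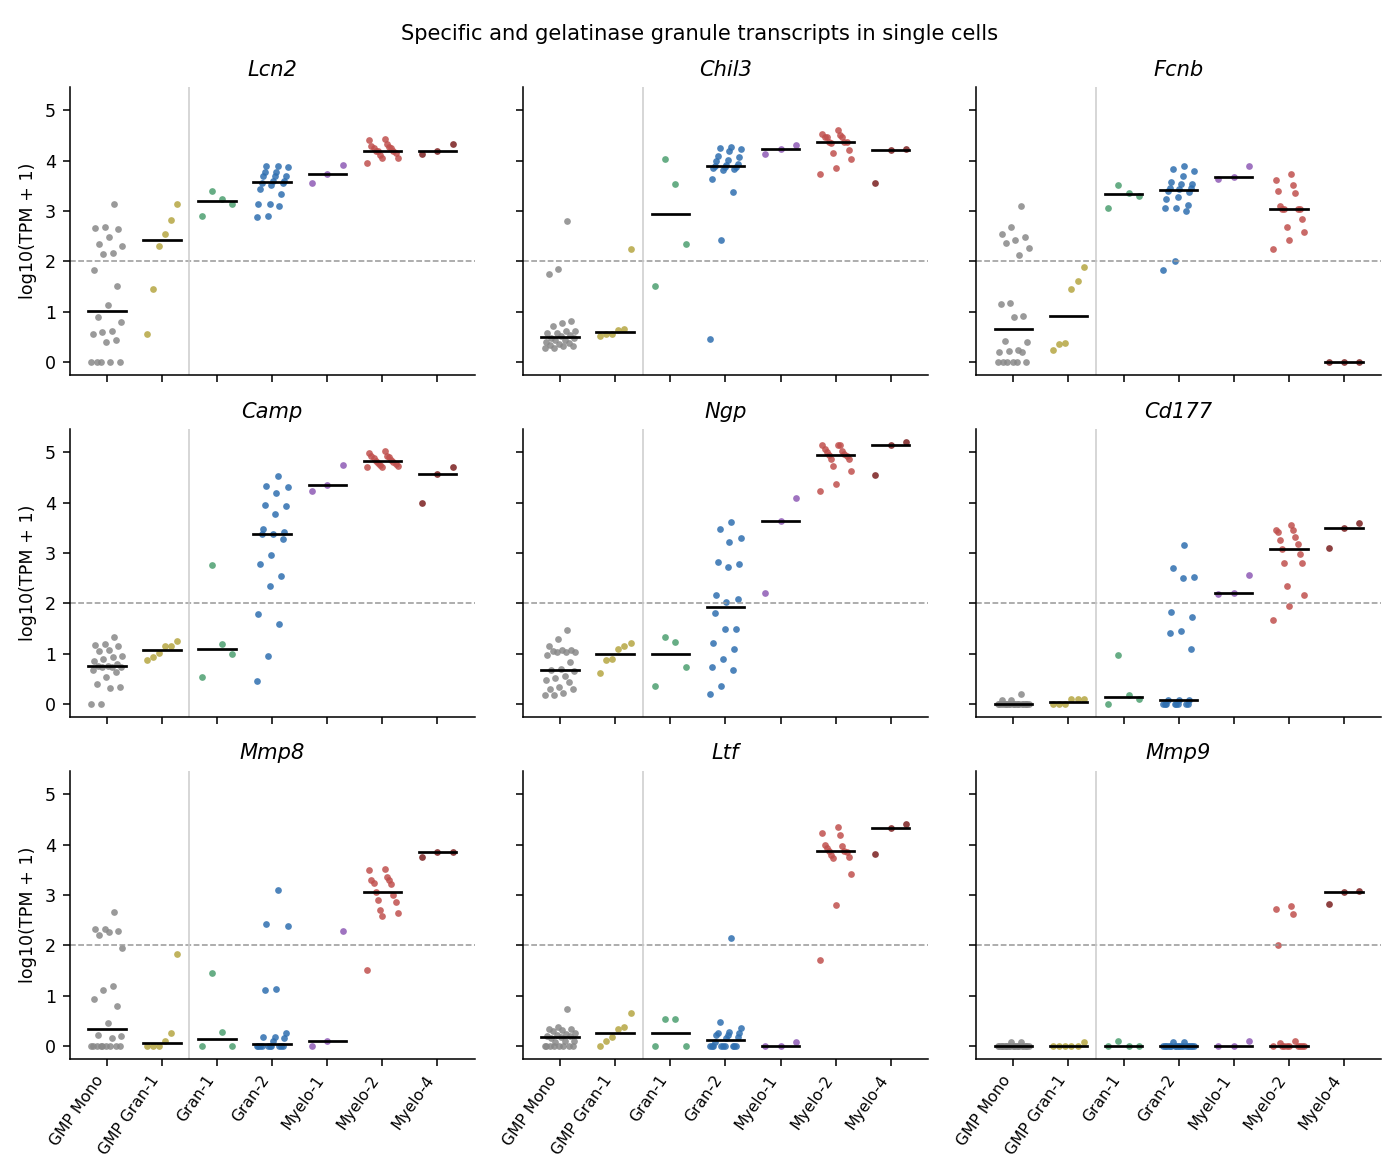
Level of each of the 9 granule genes as log10(TPM + 1) in single cells, by state: GMP Mono and GMP Gran-1 left of the grey line, the 5 CD11b+ GMP-P states right of it; points are cells, black bars are medians, and the dashed line marks 100 TPM. Lcn2, Chil3 and Fcnb have medians above the line from CD11b+ GMP-P Gran-1, Fcnb until Myelo-2 and not in Myelo-4 (0 TPM), Camp has its median above it from Gran-2, and Mmp8 and Ltf from Myelo-2; the Ngp median in Gran-2 is 84.2 TPM, just under it.

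Lcn2 encodes lipocalin 2, which starves bacteria of iron by binding their siderophores. In the 4 Gran-1 cells of CD11b+ GMP-P its level was 791, 1386, 1729 and 2477 TPM. In the 20 Gran-2 cells the lowest, median and highest levels were 771, 3788 and 7942 TPM. Lcn2 was above 100 TPM in 45 of the 45 Gran and Myelo cells of this gate, more cells than any other of the 9 genes. The 3 Myelo-1 cells held 3529, 5391 and 8397 TPM, and the 15 Myelo-2 cells 9211 to 26448 TPM with a median of 15725, so that no Myelo-2 cell was as low as the highest Myelo-1 cell. The Myelo-4 cells, at 13852, 15891 and 21941 TPM, lay within the Myelo-2 range.

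Chil3 (Ym1) encodes a chitinase-like lectin without chitinase activity. Its level varied widely among the Gran-1 cells, with 31.3, 218, 3372 and 10873 TPM. In Gran-2 it was 1.92 TPM in the lowest cell, 7996 at the median and 18805 in the highest, and 19 of 20 cells were above 100 TPM (95%, exact 95% Clopper-Pearson interval 75.1 to 99.9). Intervals of this kind cover counting error over cells only. Chil3 was the most abundant of the 9 genes in Gran-2, where it ranked 8th among all genes by median level. It reached a median of 23263 TPM in Myelo-2 and stood at 3678, 16468 and 17036 TPM in Myelo-4, the first of these below the lowest Myelo-2 cell (5534 TPM). Its near-identical neighbour Chil4 did not exceed 11 TPM in any Gran or Myelo cell of this gate, but reads could have been divided between the pair.

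Fcnb encodes ficolin B, a lectin that starts the lectin pathway of complement. It was present in each Gran-1 cell, at 1145, 2005, 2270 and 3350 TPM, and ranged widely in Gran-2, with a lowest, median and highest level of 66.3, 2613 and 7949 TPM. The Myelo-1 cells held 4432, 4721 and 7996 TPM. In the later states Fcnb was lower: the Myelo-2 median was 1097 TPM (178 to 5451), and Fcnb was listed at 0 in the 3 Myelo-4 cells. The paralog Fcna was at 0 in every Gran and Myelo cell of this gate but 1, a Myelo-4 cell with 140 TPM.

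Camp encodes the cathelicidin precursor of the antimicrobial peptide CRAMP. In Gran-1 its levels were 2.44, 8.97, 14.8 and 586 TPM, so 1 cell of 4 stood far above the others. In Gran-2 Camp was above 100 TPM in 16 of 20 cells (80%, interval 56.3 to 94.3), with levels from 1.91 to 34670 TPM around a median of 2356. Gran-2 cells therefore covered nearly the whole range between the low Gran-1 cells and the Myelo-1 cells, which held 16813, 22658 and 54953 TPM. In Myelo-2 the lowest, median and highest levels were 50196, 67885 and 108782 TPM. The Myelo-4 cells stood at 9943, 37630 and 50447 TPM, of which 1 overlapped the Myelo-2 range, by a narrow margin.

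Ngp encodes neutrophilic granule protein, a relative of cathelicidin with a cystatin-like fold. It was high in fewer of the early cells than Camp. Its Gran-1 levels were 1.28, 4.38, 16.1 and 20.6 TPM, with 0 of 4 cells above 100 TPM. The limit of 3 cells, rough for so few, would allow a share of up to 75%. Gran-2 was divided: 10 of 20 cells were above 100 TPM (50%, interval 27.2 to 72.8), the median was 84.2 TPM and the highest cell had 4092. Ngp was thus exactly at the 50% of the rule, and 4 genes instead of 5 were on there when 1 of those 10 cells was left out. The Myelo-1 cells differed widely, at 160, 4292 and 12558 TPM. The Myelo-2 cells held 17182 to 142856 TPM with a median of 88800, all above the highest Myelo-1 cell. In the Myelo-4 cells, at 34704, 142144 and 158634 TPM, Ngp was at rank 2 among all genes by median level, and in Myelo-2 it was at rank 3, with Camp at rank 4 and Chil3 at rank 5.

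Cd177 encodes a glycosylphosphatidylinositol-anchored surface protein of neutrophils that is stored in specific granules. In Gran-1 it reached at most 8.33 TPM. In Gran-2 the median was 0.21 TPM, and 4 of 20 cells (20%, interval 5.73 to 43.7) were above 100 TPM, the highest at 1461. The 3 Myelo-1 cells held 149, 158 and 363 TPM, and in Myelo-2 13 of 15 cells were above 100 TPM, around a median of 1199 TPM (46.5 to 3573). Myelo-4 cells stood at 1244, 3110 and 3887 TPM, the last of them above every Myelo-2 cell. The lone CD11b+ GMP-P cell named Mono held 408 TPM of Cd177, with 1044 TPM of Lcn2, 16767 of Chil3 and 3426 of Fcnb, while its Camp (5.85 TPM) and Ngp (3.50 TPM) were low. The lone Multi-Lin cell of this gate had none of the 9 genes above 17.7 TPM.

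Mmp8, the neutrophil collagenase, cleaves fibrillar collagen. It was at most 27.5 TPM in Gran-1 and had a median of 0.115 TPM in Gran-2, with 3 of 20 cells (15%, interval 3.21 to 37.9) above 100 TPM, the highest at 1240. Among the Myelo-1 cells 1 held 195 TPM and the others 0 and 0.26 TPM. In Myelo-2 the level was 31.6 to 3241 TPM with a median of 1165, and 14 of 15 cells were above 100 TPM. The Myelo-4 cells, at 5726, 7030 and 7211 TPM, all lay above the highest Myelo-2 cell.

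Ltf, lactoferrin, an iron-binding protein and a classical marker of specific granules, had the sharpest boundary. It did not exceed 2.36 TPM in Gran-1 or 0.17 TPM in Myelo-1. In Gran-2 only 1 of 20 cells exceeded 100 TPM (5%, interval 0.127 to 24.9), with 141 TPM, and that cell also had the highest Cd177 and Ngp of the state. In Myelo-2 14 of 15 cells were above 100 TPM (93.3%, interval 68.1 to 99.8), from 49.6 to 21925 TPM around a median of 7394. The Myelo-4 cells held 6373, 21308 and 25772 TPM.

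Mmp9, gelatinase B and the namesake of gelatinase granules, came last. It was at most 0.24 TPM in any Gran-1, Gran-2 or Myelo-1 cell; in Gran-2, 0 of 20 cells exceeded 100 TPM, which allows a share of up to 15%. In Myelo-2 the median was 0, and 3 of 15 cells exceeded 100 TPM, with 411, 517 and 610 TPM. Chosen after their values were seen, these 3 Myelo-2 cells held Fcnb at 178, 260 and 682 TPM and Cd177 at 87.8, 148 and 221 TPM, all below the medians of the state. A further Myelo-2 cell, with Mmp9 just under the threshold at 97.8 TPM, differed from them. It held Cd177 at 1849 TPM, above the median of the state, and Fcnb at 1082 TPM, close to the median. Mmp9 was 659, 1119 and 1193 TPM in the Myelo-4 cells, above every Myelo-2 cell.

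**Figure D2:**
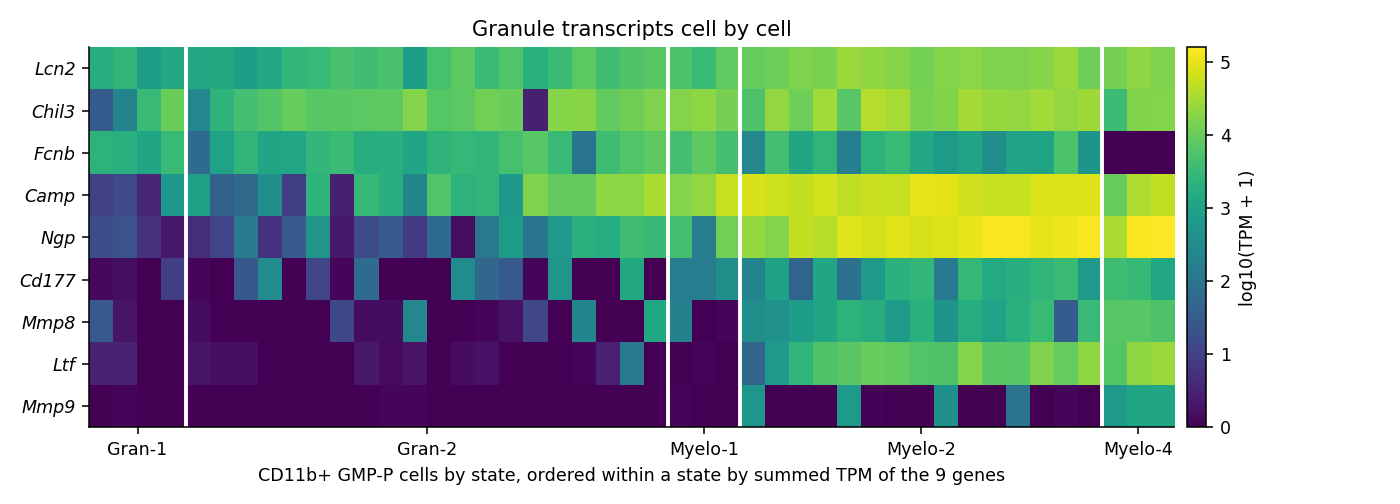
Level of the 9 granule genes (rows) as log10(TPM + 1) in each of the 45 Gran and Myelo cells of CD11b+ GMP-P (columns), grouped by state and ordered within a state by summed TPM of the 9 genes. The staircase runs from Lcn2, above 100 TPM in 45 cells, to Mmp9, above 100 TPM in 6, and Fcnb is dark in the 3 Myelo-4 cells.

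Counts of cells above 100 TPM, made without the order of the states, put the genes in the same order. The cells were picked by their Gran or Myelo names, and the counts depend on how many cells each state holds. They are therefore not an independent reading of the order. The lone Mono cell of this gate, left out here, held Cd177 at 408 TPM with Camp at 5.85 TPM and Ngp at 3.50 TPM. Of the 45 cells, Lcn2 was above 100 TPM in 45, Chil3 in 43, Fcnb in 41, Camp in 38, Ngp in 31, Cd177 in 23, Mmp8 in 21, Ltf in 18 and Mmp9 in 6. In 28 of the 45 cells the genes above 100 TPM were exactly the most frequent ones, with no gap. The frequency order came from these same cells, so part of this match was built in, and no other gene set was counted this way. A pair of genes was called one-sided when at least 5 cells held only 1 of the pair above 100 TPM and at least 90% of those cells held the same one. Of the 36 pairs of the 9 genes 22 were one-sided, against 24.6% of 4005865 pairs of genes above 100 TPM in at least 5 of these cells. A gene found in most cells against one found in few tends to give such a pair, and the genes were not matched on frequency.

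Lcn2 and Chil3 were found without Cd177, Mmp8 or Ltf in 20 to 27 cells, and none of these 3 without Lcn2 or Chil3. Camp, absent from more of the early cells, was also one-sided against them. It was above 100 TPM without Cd177 in 15 cells and Cd177 without Camp in 0; for Mmp8 these counts were 17 and 0, for Ltf 20 and 0. Camp without Ngp was found in 8 cells and Ngp without Camp in 1, which is just short of the 90% rule. Ngp stood without Ltf in 13 cells and Ltf without Ngp in 0. Ngp without Cd177 was found in 10 cells and Cd177 without Ngp in 2, so the 90% rule did not order this pair. The late genes were not ordered among themselves by the rule: Cd177 without Mmp8 was seen in 7 cells and Mmp8 without Cd177 in 5, and Mmp8 without Ltf in 5 against 2 the other way. Mmp9 was the exception, since 15 cells had Mmp8 without Mmp9 and 0 had Mmp9 without Mmp8. Of the pairs with Fcnb, that with Mmp9 was one-sided, with 38 cells against 3. Against Cd177, Mmp8 and Ltf the counts were 21, 23 and 26 cells with Fcnb alone and 3 each with the late gene alone, under the 90% rule; the 3 Myelo-4 cells held these genes without Fcnb.

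**Figure D3:**
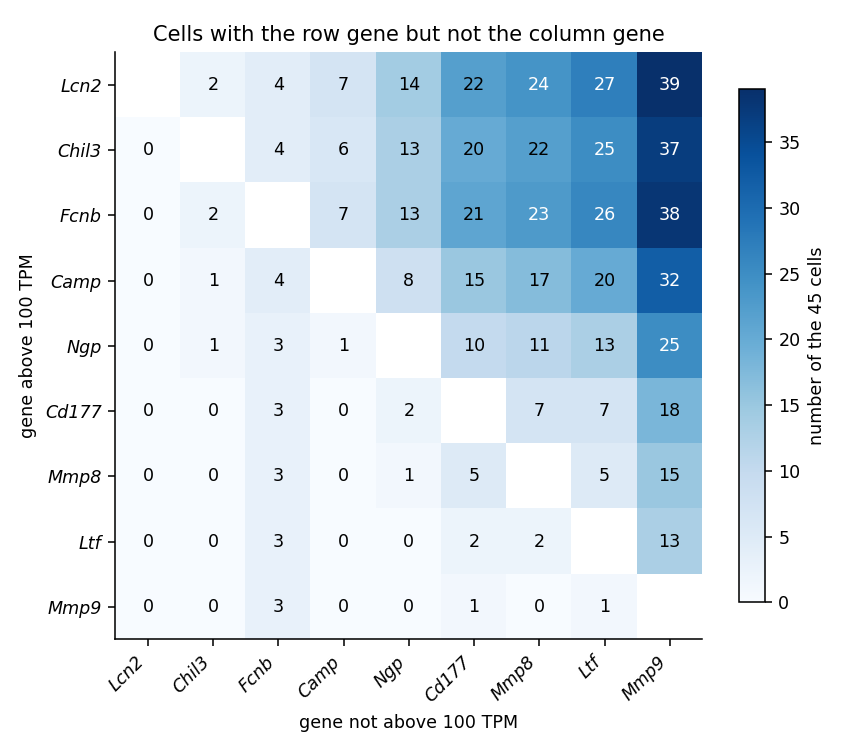
Number of the 45 Gran and Myelo cells of CD11b+ GMP-P with the row gene above 100 TPM and the column gene not above it; both axes list the 9 genes from most to least frequent. Counts above the diagonal reach 39 (Lcn2 without Mmp9), and counts below it stay at 5 or fewer.

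The steps between neighbouring states were also set against all genes, as differences of the mean log2(TPM + 1); the added 1 makes differences of low genes smaller than they are. From Gran-1 to Gran-2, 5 of the 9 genes were at least 2-fold higher and 0 at least 2-fold lower, against 12.2% and 27.8% of 8999 genes. Camp had the highest difference of all 8999 genes, 5.63 on the log2 scale, followed among the 9 by Ngp (3.30), Chil3 (2.82), Cd177 (2.05) and Lcn2 (1.12). Without the lowest Gran-1 cell the Lcn2 difference was 0.82, under 2-fold. Fcnb differed by -0.10, Ltf by -0.11 and Mmp8 by 0.38; Mmp8 was at 1.52 without the Gran-1 cell that held 27.5 TPM. For 0 of the 9 genes did the cells of these states separate without overlap, and 0.0111% of all genes separated, downwards.

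From Gran-2 to Myelo-1, 5 of 9 genes were at least 2-fold higher (20.9% of 8297 genes) and 0 lower (25.8%). Ngp (4.67), Cd177 (4.59) and Camp (4.55) differed by similar amounts on the log2 scale, Chil3 by 1.76 and Fcnb by 1.53. The Mmp8 difference of 0.83 rested on the Myelo-1 cell with 195 TPM and was -1.65 without it. Here too 0 of the 9 genes separated without overlap; 0.0603% of genes did so upwards.

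From Myelo-1 to Myelo-2, 7 of 9 genes were at least 2-fold higher, where 6.77% of 7494 genes were, and 1, Fcnb (-2.31), was lower, where 48.1% were. Mmp9 (2.17), among the 7, had a median of 0 TPM in both states. With medians over cells, or at 50% detection, the count of higher genes was 6. The 2 highest differences of all genes were those of Ltf (12.21) and Mmp8 (7.25), and Ngp (5.18) was at rank 5. For Lcn2, Ngp and Ltf every Myelo-2 cell was above every Myelo-1 cell, as for 0.04% of genes, which are these same 3. In the downward direction 0 of the 9 genes and 0.907% of all genes separated. Chil3, at 0.23, differed little; Camp was at 1.33, and at 0.98 without the lowest Myelo-1 cell.

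From Myelo-2 to Myelo-4, 4 of 9 genes were at least 2-fold higher (18.9% of 5775 genes) and 2 at least 2-fold lower (33.8%). Mmp9 was higher by 7.64, Mmp8 by 2.80, Cd177 by 1.64 and Ltf by 1.60 on the log2 scale, while Ngp (0.30) and Lcn2 (0.06) were nearly level. Mmp8 and Mmp9 did not overlap between these states, as for 0.173% of genes in that direction. Fcnb, at -10.12, had the lowest difference of all 5775 genes and did not overlap either (0.208% of genes in that direction). Camp (-1.38) was the other lower gene, and Chil3 stood at -0.99. Without the Myelo-4 cell in which the 9 genes together were lowest, the Camp difference was -0.67 and the Ngp difference 1.01. Markers of other granulocytes differed too. The summed eosinophil list had a median of 21.4 TPM in Myelo-2 (up to 2079) and 0 in Myelo-4 (up to 2610, from Ear2, with Prg2, Epx and Ear1 at 0). The summed list of 8 basophil and mast cell markers had a median of 6.46 TPM in Myelo-2 (0 to 513) and 614 TPM in Myelo-4 (2.45 to 961), with 6 of the 8 at a median of 0 there. Their part in the differences was not tested.

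The 9 genes came to hold a large part of the cell's messenger RNA. Their summed share of TPM had a median of 0.503% in Gran-1 (0.408 to 1.62), 1.997% in Gran-2 (0.251 to 6.98), 5.55% in Myelo-1 (4.87 to 9.45), 22.02% in Myelo-2 (11.7 to 29.02) and 25.1% in Myelo-4, whose cells had 8.01%, 25.1% and 27.6%. The leading gene changed along the way. In Gran-2 Chil3 made 46.6% of the summed level at the median, in Myelo-1 Camp made 40.8%, and Ngp made 40.6% in Myelo-2 and 56.6% in Myelo-4. Since TPM of a cell sum to a fixed total, a share of this size lowers the TPM of every other gene; with the granule genes taken out of the total, the counts of the 9 genes higher and lower at each step stayed as given.

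Elane, a primary granule gene, was high early and low late. It had medians of 39993 TPM in Gran-1, 36043 in Gran-2, 18854 in Myelo-1, 4 in Myelo-2 and 2.29 in Myelo-4. Across the 45 cells the summed level of the 9 genes and that of Elane had a Spearman correlation of -0.87, and with Mpo -0.86. These are descriptions over cells of 1 gate that share the fixed TPM total. The number of genes detected correlated at -0.78 with the same sum. Of the 14 primary granule genes 13 entered each step up to Myelo-2. From Gran-1 to Gran-2, 2 were at least 2-fold lower (27.8% of all genes), and from Gran-2 to Myelo-1, 8 (25.8%). From Myelo-1 to Myelo-2, 11 of 13 were lower (48.1%), 5 of them without overlap (0.907%); the list's median difference was -5.64, against -0.92 for all genes. Mpo differed by -10.34 and Srgn, the proteoglycan that packs granule proteins, by -9.37. The boundary was not complete in every cell: 5 of the 15 Myelo-2 cells still held Elane above 100 TPM, up to 7821. These included the lowest Ngp of the state (17182 TPM) and the lowest Ltf (49.6 TPM), but also the highest Camp (108782 TPM) and the highest Chil3 (41130.5 TPM). Over the 15 Myelo-2 cells the summed level of the 9 genes correlated with Elane at -0.34.

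**Figure D4:**
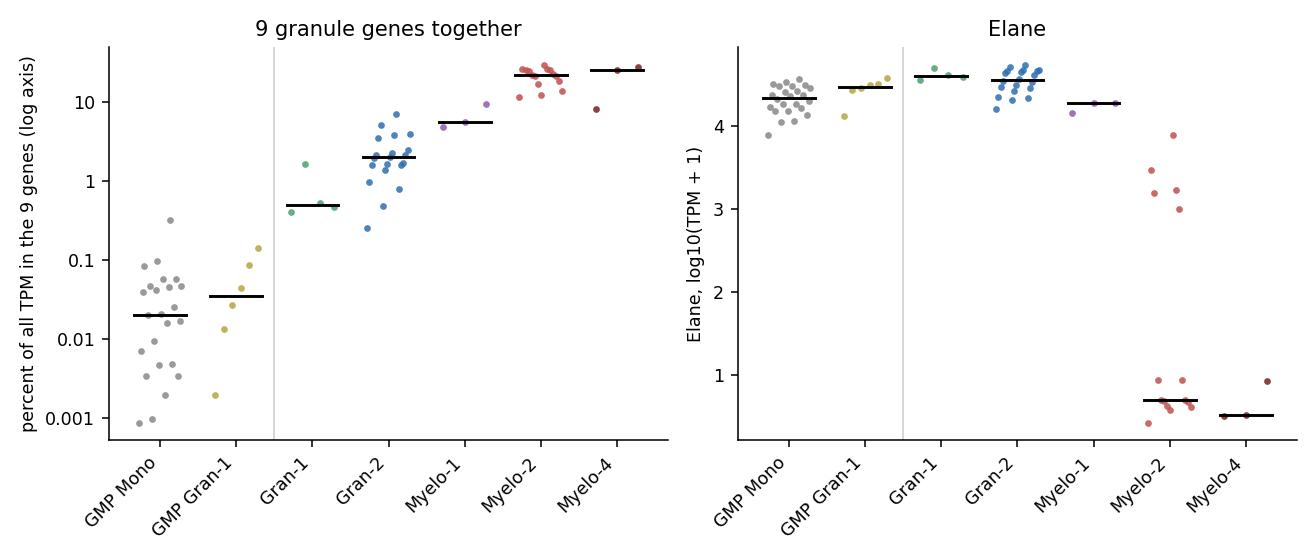
Left, percent of all TPM held by the 9 granule genes (log axis); right, Elane as log10(TPM + 1); points are cells in GMP Mono, GMP Gran-1 and the 5 CD11b+ GMP-P states, and black bars are medians. The share of the 9 genes climbs from a median of 0.503% in CD11b+ GMP-P Gran-1 to 25.1% in Myelo-4, and the Elane median goes from 39993 to 2.29 TPM.

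Other genes of the specific and gelatinase granules and of the late neutrophil were more often higher than lower at each step. The share of all genes higher and lower follows each count in parentheses. Of the 38 on that list, 8 of 27 were at least 2-fold higher from Gran-1 to Gran-2 and 1 lower (12.2% and 27.8%), led by Lyz2, lysozyme (3.90), and Ckap4 (3.37). From Gran-2 to Myelo-1 the counts were 14 and 0 of 29 (20.9% and 25.8%), led by Lrg1 (3.79) and Itgam, which encodes CD11b (2.74). From Myelo-1 to Myelo-2 they were 13 and 5 of 31 (6.77% and 48.1%), led by Ifitm6 (4.74) and the integrin subunit gene Itgb2l (4.60). From Myelo-2 to Myelo-4 they were 16 and 1 of 33 (18.9% and 33.8%), led by Retnlg, a resistin-like protein (9.51), and Fpr1, the receptor for formylated peptides (8.66).

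Among 16 granulocyte transcription factors the pattern was mixed. Cebpe had medians of 42.7 TPM in Gran-1, 104 in Gran-2, 41.1 in Myelo-1, 39.7 in Myelo-2 and 12.1 in Myelo-4, with ranges that overlapped widely between the first 4 states. Gfi1 differed by -3.59 from Myelo-1 to Myelo-2 and by -2.49 from there to Myelo-4, where it was at most 0.18 TPM. From Myelo-1 to Myelo-2, 8 of 14 factors were at least 2-fold lower, among them Myb (-3.65), and 2 higher, against 48.1% and 6.77% of all genes. Id2, an inhibitor of basic helix-loop-helix factors, differed by 4.29 from Gran-2 to Myelo-1, and Mxd1, a repressor of the MAX network, by 2.70 from Myelo-2 to Myelo-4. Of 14 genes of granule formation and secretion, 5 of 12 were at least 2-fold higher and 4 lower at that last step, against 18.9% and 33.8% of all genes, led by the fusion protein gene Stx11 (4.64) and by Gca, grancalcin (3.80).

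Between the gates, CD11b+ GMP-P held all 9 genes at a level at least 2-fold above that of GMP, where 2.72% of 7803 genes were and 39% were at least 2-fold lower. With the granule genes out of the TPM total these shares were 4.22% and 34.1%, and the 9 genes stayed at 9 of 9. The median difference of the 9 was 6.77 on the log2 scale, against -0.74 for all genes. Chil3 (9.97), Camp (8.97), Lcn2 (7.85) and Ngp (7.10) differed most and Mmp8 (2.78) and Mmp9 (1.36) least. Mmp9 passed the detection filter only through CD11b+ GMP-P, the gate where it was higher. In GMP it did not exceed 0.2 TPM, and its median was 0 in both gates. GMP cells averaged 4.42 ± 3.71 and CD11b+ GMP-P cells 12.27 ± 2.10 (SD over 45 and 47 cells) in log2(TPM + 1) of Lcn2, the SD being the spread of cells. For Mmp8 the means were 2.29 ± 3.09 and 5.07 ± 4.96. The gates hold different states, and 21 cells of each could be matched on genes detected, of which 12 in CD11b+ GMP-P were Gran-2 and 0 Myelo-4; in those cells the Mmp8 difference was -0.16. With the Mono and Multi-Lin cells of CD11b+ GMP-P left out, an alternative added after the data were seen, the count was 9 of 9 again. It was 7 with medians over cells, where Ltf was at 0.48 and Mmp9 at 0, and 8 with a pseudocount of 10, where Mmp9 was at 0.86. In the matched cells it was 7, with Mmp9 under the detection filter, as it was at 50% detection (8 genes), and in even-numbered cells 8, with Mmp8 at 0.85.

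The state Gran-1 occurred in both gates, with 6 cells from GMP and 4 from CD11b+ GMP-P, and the genes of the first wave were higher in the latter. Fcnb in the GMP Gran-1 cells was 0.74 to 74.8 TPM with a median of 14.2, below the lowest CD11b+ GMP-P Gran-1 cell (1145 TPM). Its difference of 7.73 on the log2 scale was the highest of 9201 genes, and 0.337% of genes were higher without overlap (0.152% lower, none of the 9 among them). Chil3 had a median of 3.03 TPM in GMP Gran-1 (2.30 to 174), and its difference of 6.62 was at rank 2. Lcn2 was already present, with a median of 278 TPM (2.56 to 1390), and differed by 3.43. With Camp (1.04, where medians were 11.2 and 11.9 TPM and 1 CD11b+ GMP-P cell held 586), 4 of the 9 genes were at least 2-fold higher in the CD11b+ GMP-P cells and 0 lower, against 23.6% and 22% of genes. Elane, the primary granule gene, was high in GMP Gran-1 too, with a median of 29917 TPM.

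The 2 GMP cells named Gran-2 carried different sets. The first held Lcn2 at 2441 TPM, Fcnb at 1925, Camp at 624, Cd177 at 367, Chil3 at 246 and Ngp at 81.2. The other held Chil3 at 6883 TPM, Lcn2 at 1933, Ngp at 1128 and Fcnb at 667, with Camp at 7.18. This second cell held Ngp above 100 TPM without Camp. Among the Gran and Myelo cells of CD11b+ GMP-P 1 did so, and 8 held Camp without Ngp.

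Low levels outside the granulocyte states differed between the genes. In the 24 GMP cells named Mono, Camp had a median of 4.71 TPM, Ngp 3.80, Chil3 2.11 and Ltf 0.47. Set against the mean of each gene over CD11b+ GMP-P cells, these medians were 159, 107, 154 and 123 ppm (parts of 1000000), and that of S100a9, a far more abundant transcript of maturing neutrophils, was 151. The fractions of these genes were close to each other, although the means they refer to ranged from 3810 TPM for Ltf to 97212 TPM for S100a9. Cd177 and Mmp9, with means of 712 and 98.0 TPM, had a median of 0 in the Mono cells. S100a8, with a mean of 93664 TPM, lay apart at 403 ppm. The Camp, Ngp and Ltf levels of Mono cells did not exceed 20.3, 28.3 and 4.31 TPM, and 0 of 24 cells were above 100 TPM for these 3 genes, which allows a share of up to 12.5%. Whether these low levels are carried-over reads was not tested.

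Lcn2, Fcnb and Mmp8 differed from that: some Mono cells held them well above 100 TPM. Lcn2 was above 100 TPM in 9 of 24 Mono cells, Fcnb in 8 and Mmp8 in 6, with highest values of 1349, 1242 and 464 TPM. Their medians, 9.69, 4.23 and 1.26 TPM, were 1112, 1755 and 1369 ppm of the CD11b+ GMP-P means. Lcn2 and Fcnb often occurred in the same cell, with both above 100 TPM in 5 cells, Lcn2 alone in 4, Fcnb alone in 3 and neither in 12. Mmp8 shared 1 cell with Fcnb, and 5 cells had it without Fcnb. Mmp8, late in the granulocyte states, was thus above 100 TPM in 6 Mono cells but in 0 of the 6 GMP Gran-1 cells and 0 of the 4 CD11b+ GMP-P Gran-1 cells. Elane, a primary granule transcript, had a median of 21990 TPM over all 24 Mono cells. The 6 Mono cells with Mmp8 above 100 TPM held Elane at 11549 to 20043 TPM, each below that median. The summed level of the 13 monocyte markers was 341 to 18719 TPM over all Mono cells, against 3291 to 7048 in GMP Gran-1. Over the 37 GMP cells outside the Gran states, Camp, Ltf, Cd177 and Mmp9 were above 100 TPM in 0 cells, which allows up to 8.11%, and Ngp in 1, a Multi-Lin cell with 152 TPM.

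**Figure D5:**
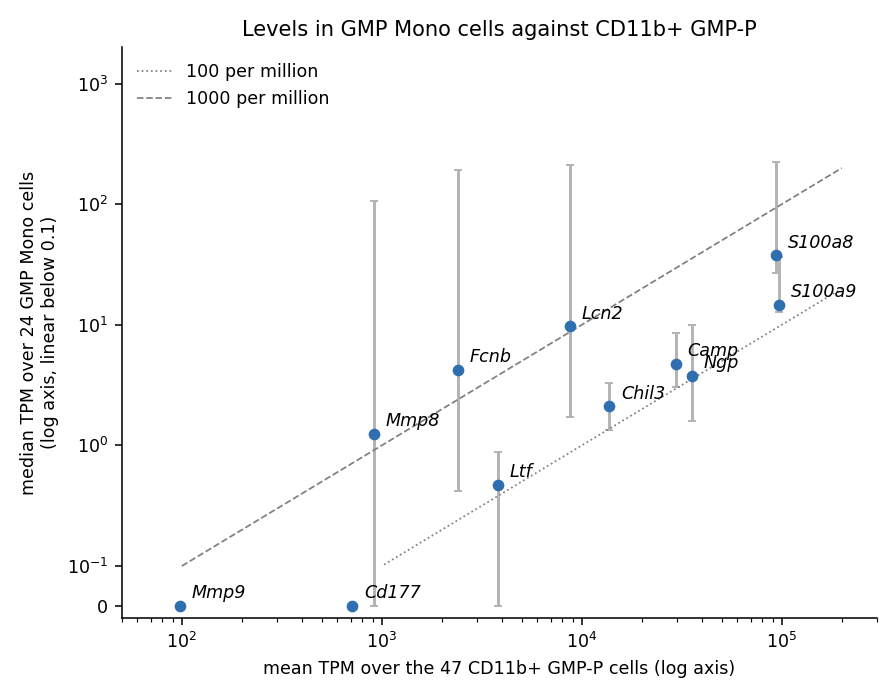
Median TPM over the 24 GMP Mono cells (log axis, linear below 0.1) against mean TPM over the 47 CD11b+ GMP-P cells (log axis) for the 9 granule genes, S100a8 and S100a9; the grey lines mark 100 and 1000 ppm. Camp, Ngp, Chil3, Ltf and S100a9 lie between 107 and 159 ppm, S100a8 lies at 403, and Lcn2, Fcnb and Mmp8 lie above 1000. Cd177 and Mmp9 have a Mono median of 0.

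In the reverse direction, medians of primary granule transcripts over the 3 Myelo-4 cells were set against Gran-2 medians of the same gate. The fractions of Mono cells refer to means over the other gate, so the denominators differ. Elane stood at 63.5 ppm of its Gran-2 median, Ctsg at 201, Mpo at 208 and Prtn3 at 104. Fcnb, whose Gran-2 median was lower than that of these 4 genes except Ctsg, was at 0 in the same cells.

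The genes with the most similar pattern over the 47 CD11b+ GMP-P cells were found by Spearman correlation of TPM among 6115 genes. S100a9 was among the 3 nearest of Lcn2, Camp, Ngp and Mmp8. For Lcn2 they were S100a9 (0.89), S100a8 (0.86) and 1100001G20Rik (0.80), and for Ngp S100a9 (0.87), S100a8 (0.84) and Itgb2l (0.82). Camp was nearest to S100a8 (0.85), S100a9 (0.80) and Myh9 (0.77). For Mmp8 they were S100a9 (0.73), Plbd1 (0.72) and Chil1 (0.71), for Ltf Plbd1 (0.74), Chil1 (0.73) and Ifitm6 (0.69), and for Cd177 Cd300lf (0.73), Itgb2l (0.72) and Chil1 (0.71). Chil3 was nearest to Lyz2 (0.68), Lyz1 (0.66) and its neighbour Chil4 (0.64), where divided reads cannot be told apart from a shared pattern. Fcnb was nearest to D8Ertd738e (0.67), Chmp3 (0.64) and 4833439L19Rik (0.57), and Mmp9 to Slc2a3 (0.64), Lgals3 (0.55) and Pirb (0.53), the lowest values of the 9. These cells share a gate and differ in state and in genes detected.

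Between the 9 genes, correlations across the 45 Gran and Myelo cells were highest for Lcn2 with Ngp (0.86) and Camp with Ngp (0.85) and lowest for Fcnb with Ltf (-0.51) and Fcnb with Mmp8 (-0.48). Within a state they were different. Camp and Ngp correlated at 0.67 over the 20 Gran-2 cells and at -0.04 over the 15 Myelo-2 cells. Within Myelo-2 the highest were Chil3 with Ltf (0.69) and Ngp with Ltf (0.68), and the lowest was Chil3 with Mmp9 (-0.48). These too describe cells of a single gate.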

How the data were processed

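Single-cell RNA-seq of 92 cells was used, and each gate was treated as 1 library. Per the submitters' processing notes, reads were processed with Bowtie2, RSEM and the mm9 build, whose versions the sources used here do not state. The authors deposited log2 values, which on the linear scale are TPM plus 1: TPM sum to 1000000 in each cell, except that 1 row, Ly6g, lies outside that total. A second deposited table gives the authors' state number and name per cell. It held 0 columns of other samples, and no 2 cells were identical. TPM keeps no read depth, so depth is unknown and counting error of a level cannot be given. All cells were kept, and doublets were not called.

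Means of log2(TPM + 1) were compared over genes above 0 in 25% or more of the cells of either group, with a size rule of 2-fold, using Python 3.11.15, pandas 2.3.3, numpy 2.4.6 and scipy 1.17.1; the scripts were tested on simulated data. Exact 95% intervals (Clopper-Pearson) stand beside shares of cells. Where no cell passed, the upper limit given equals 3 cells. That limit is an approximation, not the exact interval, and is rough for few cells. The 9 genes and all lists were chosen with earlier results of these data known. Besides the 9 genes, those named were the 3 most correlated with each, the 3 members of each list with the largest difference between the gates and the 2 with the largest at each step (not all are printed), and Gfi1, Cebpe, Cebpa, Itgam and Kit. Alternatives were other pseudocounts (0.1 and 10), detection filters, medians, TPM without granule genes, other thresholds, matched or fewer cells, and 8 of the 9 genes. Promoters are RefSeq's; no promoter of Mmp9 is shown.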

Additional observations from a re-analysis of the deposited data

Results flagged for a closer look

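Dixon's test marked a single cell in 7 of the 36 combinations of gene and state with 4 to 10 cells; chance alone flags about 1 in 20. In GMP Gran-1, cell 37 held Chil3 at 174.31 TPM while the other 5 cells lay between 2.3 and 3.49 TPM, and cell 40 held Mmp8 at 67.37 TPM while the others did not exceed 0.79 TPM. In GMP MP, cell 15 held both Chil3 at 94.3 TPM (others 2.38 to 4.5) and Fcnb at 218.73 TPM (others at most 0.74). The other 3 flags carry no weight, since the remaining cells of the state were at 0 for Mmp9 and any trace is then flagged by construction: 0.2 TPM in GMP Gran-1 cell 25, 0.18 TPM in GMP Multi-Lin cell 35 and 0.22 TPM in CD11b+ GMP-P Gran-1 cell 79.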

How the results depend on the processing

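Each gate was treated as 1 library and several states hold 3 cells, so no value has a replicate check. Of 146 recomputed counts and shares 138 were within 1.5 times, or within the spread of cells, of the value given, as were 292 of 301 recomputed values of single genes. Much of this match was built in, so it says little about how firm a value is. The detection filter does not alter the difference of a gene, and several counts were 0 in both. The spread of cells is wide: the gate difference of Ltf, 4.61 with means and 0.48 with medians, was within it. At a threshold of 10 TPM, 5 genes were on in Gran-1, with Camp and Ngp added, and at 1 TPM 6. At 1000 TPM Ngp was first on in Myelo-1 and Cd177 in Myelo-2. With the highest GMP Mono cell as the threshold of each gene, no first state differed. Between the gates, the Mmp8 difference was -0.16 in cells matched on the number of genes detected. From Gran-1 to Gran-2, Cd177 turned to -0.20 with medians over cells. From Gran-2 to Myelo-1 the count of genes at least 2-fold lower was 1 with a pseudocount of 0.1, and 0 to 1 on leaving out single cells. From Myelo-2 to Myelo-4 the lower count was 1 with medians and 1 to 3 on leaving out single cells. Without Ngp the share of TPM was 12.5% in Myelo-2 and 10.9% in Myelo-4. Taking granule genes out of the TPM total moved the median gate difference of all genes from -0.74 to -0.62; the 9 genes were at least 2-fold higher in both. No paired analysis was possible because the gates share no cell numbers and no animals are named.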
